A study of Homo sapiens with 4 samples.

Results

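The genes described here are 33 known androgen-induced genes of prostate cells other than the kallikreins, taken by symbol from a list. No measured value enters that rule, but the list was chosen with earlier results of these data known. All 33 symbols were found among the 25343 genes of each deposited table. With a mean of at least 1 CPM (reads of a gene scaled to a common library size by the authors) over the 2 libraries of a line, 27 were measured in C4-2B ENZR cells, 33 in LNCaP cells and 27 in both. The list runs from surface proteases and metalloreductases through transporters, signalling proteins and metabolic enzymes to transcription factors and proteins of cell division.

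Androgens act through a hormone-activated transcription programme whose DNA sites are androgen response elements, inverted repeats of the hexamer AGAACA, often in enhancers far from the regulated gene. In luminal prostate cells this programme drives secretory proteins, lipid and sugar metabolism and feedback regulators of the hormone response. Enzalutamide is a drug that blocks androgen signalling, and resistant cells have adapted to grow in its presence. The knocked-down gene MAOA makes monoamine oxidase A, which sits on the outer mitochondrial membrane and oxidises serotonin and noradrenaline.

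RNA sequencing covered 4 groups with 1 library each. In the C4-2B ENZR line, an enzalutamide-resistant derivative of C4-2B prostate carcinoma cells cultured with 20 µM of the drug, MAOA knockdown cells (shMAOA) are set against cells with a non-targeting hairpin (shCon). In LNCaP, an androgen-responsive prostate carcinoma line for which no drug is labelled, the same pair was sequenced. All 4 cultures had lentiviral hairpins, antibiotic selection and 10% fetal bovine serum, which carries some androgen, and nothing in the labels describes clones, animals or repeated cultures. The labels do not show that both lines received the same MAOA hairpin, and the library labels carry another lane suffix in each line, so a lane effect and a line effect cannot be told apart. In such bulk RNA, fewer cells of a kind and less RNA per cell cannot be told apart either.

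Recovered depth was 23679869 and 23479051 reads for C4-2B ENZR shMAOA and shCon, and 52012696 and 52550452 for LNCaP shMAOA and shCon. MAOA stood at 219 CPM in shMAOA against 327 CPM in shCon cells of C4-2B ENZR, and at 140 against 445 CPM in LNCaP. The target was thus lower in each shMAOA library, by a smaller fold in C4-2B ENZR than in LNCaP. Ratios set side by side between the lines follow knockdowns of unlike size, and what that does to them was not tested. The luminal keratin gene KRT18 stood at 274 and 287 CPM in C4-2B ENZR shMAOA and shCon and at 516 and 459 CPM in LNCaP shMAOA and shCon. EPCAM, an epithelial adhesion molecule, stood at 111 and 100.5 CPM in C4-2B ENZR shMAOA and shCon and at 91.8 and 86.3 CPM in LNCaP shMAOA and shCon. The 4 basal markers summed to at most 1.47 CPM in any library, and the T-cell gene CD3E and the stromal genes COL1A2 and PDGFRA had 0 reads in all 4. The stromal markers summed to 54.2 and 46.8 CPM in C4-2B ENZR shMAOA and shCon and to 66.4 and 70.2 CPM in LNCaP shMAOA and shCon, most of it COL1A1. ACTA2, smooth muscle actin and one of these markers, fell (mean -0.99, limma adjusted p = 6.57e-06), its log2 ratio being -0.54 in C4-2B ENZR cells and -1.45 in LNCaP cells. The immune markers summed to 11.2 and 10.1 CPM in C4-2B ENZR shMAOA and shCon and to 25.1 and 17.2 CPM in LNCaP shMAOA and shCon, nearly all of it CD68. The part of these markers in the members' ratios was not tested. The neuroendocrine markers summed to 73.8 and 88.6 CPM in C4-2B ENZR shMAOA and shCon and to 55.6 and 36.7 CPM in LNCaP shMAOA and shCon, nearly all of it ENO2, while CHGA had at most 4 reads.

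The ratio used throughout is log2 of (shMAOA CPM + 1)/(shCon CPM + 1) within a table, and intervals in brackets are exact 95% counting intervals without the added 1, which cover counting error only. The 2 tables were normalized separately. In the LNCaP table the median log2 ratio of genes with at least 10 CPM was 0.13, against -0.01 in C4-2B ENZR, so an LNCaP ratio near 0.13 lies with the bulk of genes, and ratios centred on these medians are given where the reading changes. With 1 library per group there is no replicate check within a line. The words rose and fell are kept for genes that passed a test over both lines (Benjamini-Hochberg adjusted p under 0.05 over 13114 genes), which is limma on the deposited values unless another fit is named. In it the 2 lines are the replicates and the spread is mostly a prior pooled over genes.

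Few of these genes moved far. Of 27 members tested, ZBTB10 and ABCC4 rose and C1orf116 fell, that is 2 rises and 1 fall. Among all genes tested 4.22% rose and 1.49% fell. After centring each table on its median, 3 members rose and 3 fell, where 4.41% of all genes rose and 4.14% fell, with ABHD2 joining the rises and STEAP2 and NCAPD3 the falls. In edgeR's quasi-likelihood test on recovered reads with TMM recomputed, ABHD2 rose and C1orf116 fell, 1 member each way, where 1.33% of all genes rose and 0.976% fell. C1orf116 passed in all 3 of these fits.

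Within C4-2B ENZR no member was 1.5-fold higher in shMAOA cells, where 1.59% of all 13810 genes were, and 3 members were 1.5-fold lower (ELL2, C1orf116 and PMEPA1), where 0.963% of all genes were. Within LNCaP 1 member was 1.5-fold higher (ZBTB10; 4.98% of all 13787 genes) and 2 were 1.5-fold lower (MAF and C1orf116; 1.57% of all genes). After centring LNCaP had 1 member 1.5-fold higher, beside 2.34% of all genes, and 3 lower with GNMT added, beside 3.34%. The measured members had a median log2 ratio of -0.09 in C4-2B ENZR, beside 0.002 over all genes measured there, and 0.03 in LNCaP, beside 0.11. Of the 27 members measured in both lines, 8 were higher in both, 11 were lower in both and 8 had opposite signs. Over all 13114 genes 40% were higher in both, 23.2% were lower in both and 36.8% had opposite signs. After centring the members' counts were 6, 12 and 9, beside 31.5%, 33.4% and 35% of all genes. In LNCaP the shMAOA over shCon ratios of ACSL3, PTGER4, STEAP1 and CAMKK2 changed sign on centring, none of them beyond 0.13 in size before it.

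**Figure D1:**
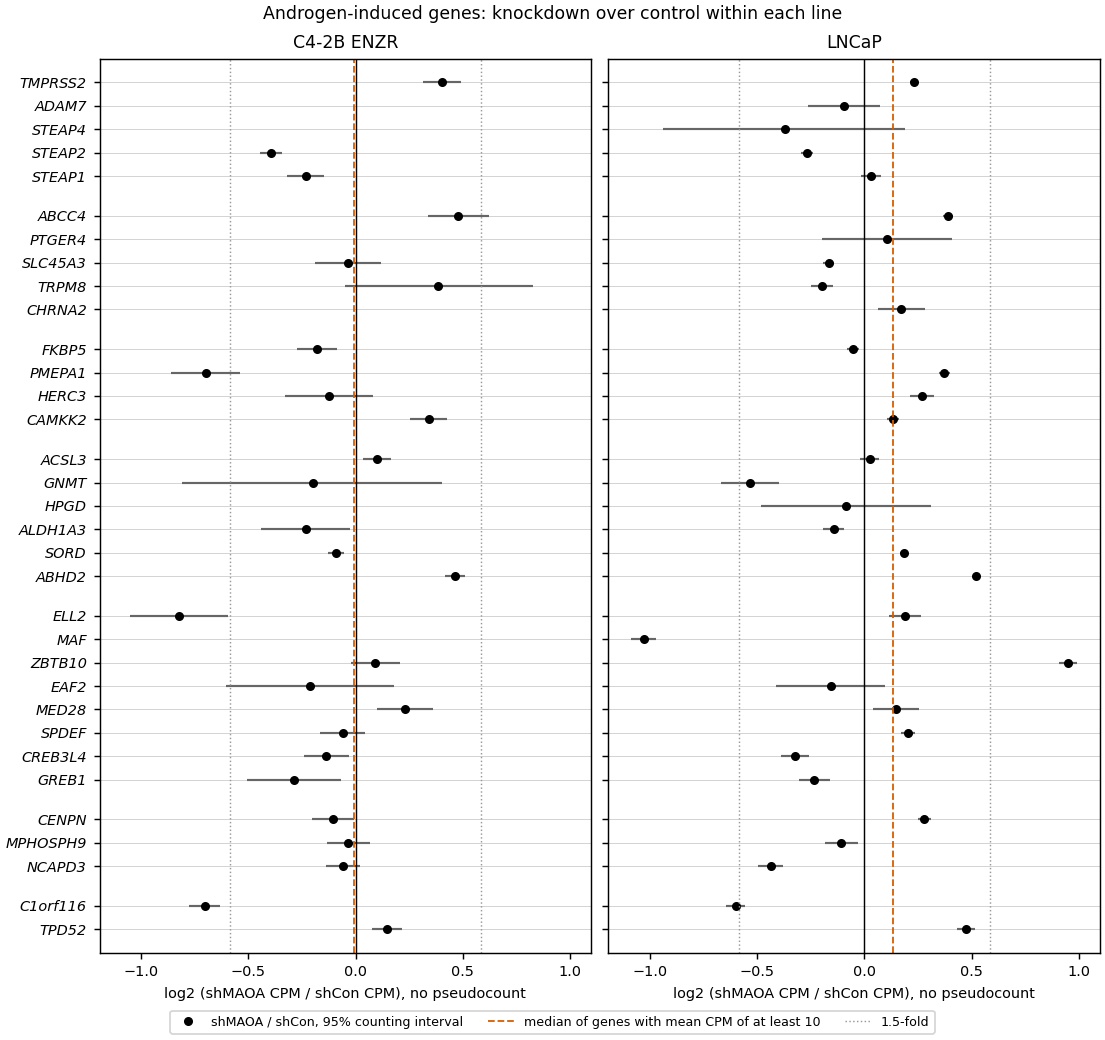
Log2 ratio of shMAOA over shCon CPM without a pseudocount for each member with a mean of at least 1 CPM in C4-2B ENZR (left, 27 genes) and LNCaP (right, 33 genes), 1 library per group, with genes grouped by role. Bars are exact 95% counting intervals, dotted lines mark 1.5-fold and the dashed line marks the median of genes with at least 10 CPM, -0.01 and 0.13. ELL2, PMEPA1 and C1orf116 lie beyond the lower 1.5-fold line on the left, and MAF, C1orf116 and ZBTB10 lie beyond a line on the right.

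The promoter windows of C1orf116 and ABCC4, members that passed the test, are shown with 1 window of FKBP5, so that the letters of the androgen response element can be looked for at these starts. RefSeq windows (build GRCh38.p14, each from 250 bases before to 50 after a start) were found for 24 of the 33 members, 38 windows in all. None was found for ZBTB10, which also passed. Sequences run 5′ to 3′ on the gene's strand, and capitals mark the hexamer AGAACA or its reverse complement TGTTCT. C1orf116 (chr1:207032707-207033006, minus strand) and ABCC4 (chr13:95301402-95301701, minus strand) passed the limma test. The FKBP5 window shown (chr6:35728534-35728833, minus strand) is 1 of the 4 windows with a hexamer, at bases 251 to 256 counted from 1 at its 5′ end.
C1orf116: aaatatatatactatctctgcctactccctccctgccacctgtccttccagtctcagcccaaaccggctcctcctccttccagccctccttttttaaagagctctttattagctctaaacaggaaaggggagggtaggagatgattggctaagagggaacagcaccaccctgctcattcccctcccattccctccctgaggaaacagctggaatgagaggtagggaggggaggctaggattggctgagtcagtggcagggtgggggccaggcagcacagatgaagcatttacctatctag
ABCC4: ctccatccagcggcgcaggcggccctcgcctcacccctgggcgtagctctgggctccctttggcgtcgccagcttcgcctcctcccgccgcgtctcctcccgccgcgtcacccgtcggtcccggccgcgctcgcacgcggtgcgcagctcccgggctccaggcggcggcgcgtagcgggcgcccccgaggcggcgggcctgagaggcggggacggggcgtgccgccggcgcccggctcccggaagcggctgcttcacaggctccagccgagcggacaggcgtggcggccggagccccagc
FKBP5: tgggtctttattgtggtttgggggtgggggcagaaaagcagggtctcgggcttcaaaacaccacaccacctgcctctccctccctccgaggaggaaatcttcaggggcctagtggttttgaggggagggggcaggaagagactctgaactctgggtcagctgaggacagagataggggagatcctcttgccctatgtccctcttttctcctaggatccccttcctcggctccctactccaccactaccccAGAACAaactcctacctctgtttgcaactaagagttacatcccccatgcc
The windows of C1orf116 and ABCC4 hold no hexamer, and neither does the other FKBP5 window (chr6:35688866-35689165), which is not shown. Of the 38 member windows, 4 (10.5%), from FKBP5, PMEPA1 and TRPM8, hold AGAACA on either strand, against 14.8% of all 35116 windows of that length. The full inverted repeat, AGAACA and TGTTCT with any 3 bases between them, which contains 2 hexamers, was in 0 of the 38 and in 1 of all windows. These matches describe letters near the start only, and enhancers were not examined.

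Among surface proteases and metalloreductases, TMPRSS2, a transmembrane serine protease whose promoter is a frequent fusion partner in prostate cancer, had 99.9 CPM in shMAOA against 75.6 CPM in shCon cells of C4-2B ENZR (log2 0.40, interval 0.32 to 0.49). In LNCaP it had 1334 CPM in shMAOA against 1137 CPM in shCon (0.23, interval 0.21 to 0.25), which is 0.10 after centring. It was higher in the shMAOA library of both lines but did not pass (mean log2 0.31, SE 0.14, limma adjusted p = 0.171).

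STEAP2 and STEAP4 encode membrane metalloreductases that reduce iron and copper. STEAP2 had 211 CPM in shMAOA against 277 CPM in shCon of C4-2B ENZR (-0.39, interval -0.45 to -0.34), and 367 CPM in shMAOA against 442 CPM in shCon of LNCaP (-0.27, interval -0.30 to -0.24). It was lower in both shMAOA libraries. Its mean ratio did not pass as deposited (-0.33, SE 0.14, limma adjusted p = 0.138). It passed in limma after centring (-0.39, adjusted p = 0.0035) and after rescaling to the same sum (-0.44, adjusted p = 0.00158). In DESeq2 it passed narrowly (-0.39, adjusted p = 0.0497), and in edgeR (TMM recomputed) it did not (-0.39, adjusted p = 0.0574). The highest adjusted p over the alternatives was 0.353, in limma without a filter.

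STEAP1, its neighbour in the family, had 81.9 CPM in shMAOA against 96.2 CPM in shCon of C4-2B ENZR (-0.23, interval -0.32 to -0.15). In LNCaP it had 132 CPM in shMAOA against 129 CPM in shCon (0.03, and -0.10 after centring), and it did not pass (limma adjusted p = 0.736). Of its 50-base words 21.4% occur in STEAP1B, itself present at 4.35 and 5.22 CPM in the C4-2B ENZR shMAOA and shCon libraries and at 0.614 and 0.264 CPM in LNCaP shMAOA and shCon. STEAP4 was near the limit of measurement, with 24 and 17 reads in C4-2B ENZR shMAOA and shCon and 46 and 69 reads in LNCaP shMAOA and shCon. ADAM7, of the ADAM family of membrane proteins, had 1 and 0 reads in C4-2B ENZR shMAOA and shCon, where the limit that a count of 0 allows is 0.121 CPM, and 10.7 and 11.5 CPM in LNCaP shMAOA and shCon.

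ABCC4, an exporter of cyclic nucleotides, prostaglandins and drugs, was the transporter that rose. It had 39.1 CPM in shMAOA against 28.0 CPM in shCon of C4-2B ENZR (0.47, interval 0.34 to 0.62). In LNCaP it had 541 CPM in shMAOA against 413 CPM in shCon (0.39, interval 0.36 to 0.42), or 0.26 after centring. The 2 ratios lay close together, with a mean of 0.43 (SE 0.12, limma adjusted p = 0.018). In edgeR (TMM recomputed) it did not pass (0.36, adjusted p = 0.0896), nor in DESeq2 (adjusted p = 0.122), and over all alternatives its adjusted p ran between 0.0106 and 0.199.

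SLC45A3, the prostate sugar transporter family member prostein, hardly differed in C4-2B ENZR, with 27.9 CPM in shMAOA against 28.6 CPM in shCon (-0.03, interval -0.19 to 0.12). The LNCaP libraries had 417 CPM in shMAOA against 468 CPM in shCon (-0.17, and -0.30 after centring), and it did not pass (limma adjusted p = 0.734). TRPM8, the cold-sensing cation channel, had 4.23 against 3.24 CPM in C4-2B ENZR shMAOA and shCon (0.30, with a counting interval of -0.05 to 0.83) and 110.0 against 126 CPM in LNCaP shMAOA and shCon (-0.20). Its opposite signs rest on 104 and 80 reads in C4-2B ENZR. PTGER4, the prostaglandin E receptor EP4, had 9 and 6 reads in C4-2B ENZR shMAOA and shCon and 3.62 and 3.37 CPM in LNCaP shMAOA and shCon. CHRNA2, a nicotinic receptor subunit, had 4 and 12 reads in C4-2B ENZR shMAOA and shCon and 27.0 and 24.0 CPM in LNCaP shMAOA and shCon (0.17). Neither was measured in C4-2B ENZR.

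**Figure D2:**
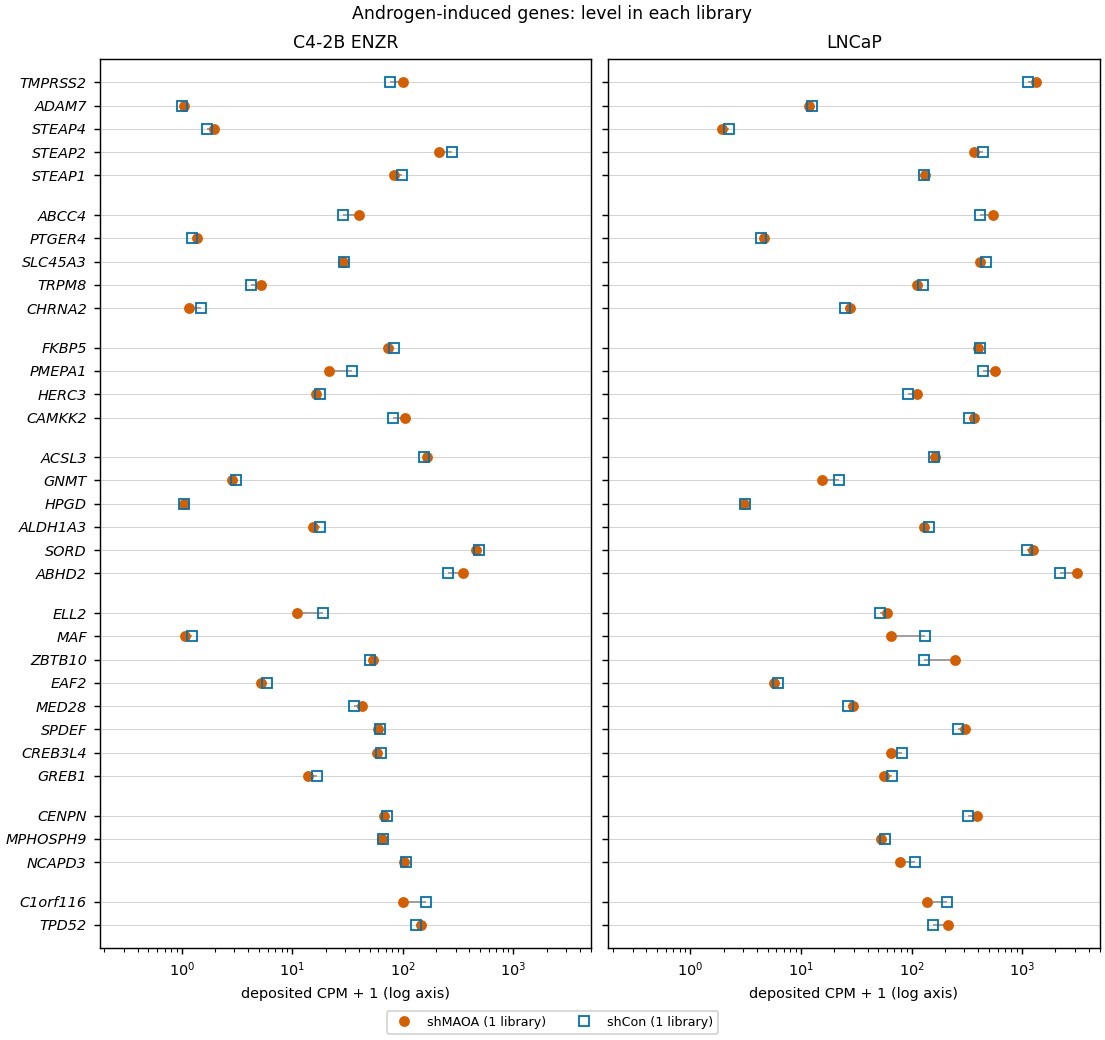
Deposited CPM plus 1, on a log axis, of all 33 members in C4-2B ENZR (left) and LNCaP (right), with filled circles for shMAOA and open squares for shCon, 1 library each. The 2 tables were normalized separately. The markers of a gene lie close together for most members, and MAF (64.7 against 132 CPM) and ZBTB10 (248 against 128 CPM) are the most separated pairs in LNCaP.

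FKBP5 encodes a co-chaperone of steroid receptors that androgens and glucocorticoids both induce. It had 73.0 CPM in shMAOA against 82.7 CPM in shCon of C4-2B ENZR (-0.18, interval -0.27 to -0.09). LNCaP cells had 398 CPM in shMAOA against 413 CPM in shCon (-0.05, and -0.19 after centring). It was somewhat lower in both shMAOA libraries and did not pass (mean -0.12, SE 0.13, limma adjusted p = 0.693).

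PMEPA1, a membrane adaptor of NEDD4 ubiquitin ligases that limits TGF-beta signalling, went opposite ways. It had 20.6 CPM in shMAOA against 33.5 CPM in shCon of C4-2B ENZR (-0.67, interval -0.86 to -0.54). In the LNCaP pair there were 571 CPM in shMAOA against 441 CPM in shCon (0.37, interval 0.35 to 0.40), or 0.24 after centring. It was the member with opposite ratios of at least 0.2 in size in both lines, and its mean did not pass (-0.15, limma adjusted p = 0.576). A share of 4.33% of its 50-base words lies on the opposite strand of the antisense RNA NKILA, and the labels do not say whether the counting used strand.

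CAMKK2, a calcium-dependent kinase upstream of AMPK, had 103 CPM in shMAOA against 81.0 CPM in shCon of C4-2B ENZR (0.34, interval 0.26 to 0.43). The values in LNCaP were 364 CPM in shMAOA against 332 CPM in shCon (0.13), a ratio that centring removes. HERC3, a ubiquitin ligase, had 15.4 against 16.7 CPM in C4-2B ENZR shMAOA and shCon (-0.12, interval -0.33 to 0.08) and 109.9 against 91.1 CPM in LNCaP shMAOA and shCon (0.27, and 0.13 after centring). Neither passed, with limma adjusted p = 0.301 for CAMKK2 and 0.821 for HERC3.

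Among the enzymes, ABHD2, a serine hydrolase of lipids, was higher in both shMAOA libraries. It had 350.3 CPM in shMAOA against 254 CPM in shCon of C4-2B ENZR (0.46, interval 0.42 to 0.51). LNCaP libraries showed 3145 CPM in shMAOA against 2189 CPM in shCon (0.52, interval 0.51 to 0.53), or 0.39 after centring. Its mean ratio of 0.49 (SE 0.17) missed the threshold as deposited (limma adjusted p = 0.0578). It passed in limma after centring (0.43, adjusted p = 0.00242), in edgeR (TMM recomputed) (0.43, adjusted p = 0.0375) and in DESeq2 (0.43, adjusted p = 0.0118), with a highest adjusted p of 0.356 in the fit without a filter.

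GNMT, which uses S-adenosylmethionine to methylate glycine, had 14.6 CPM in shMAOA against 21.2 CPM in shCon of LNCaP (-0.51, interval -0.67 to -0.40), or -0.64 after centring. In C4-2B ENZR it rested on 45 and 52 reads in shMAOA and shCon (-0.13, interval -0.81 to 0.40), and it did not pass (limma adjusted p = 0.276). SORD, sorbitol dehydrogenase, had 461 against 491 CPM in C4-2B ENZR shMAOA and shCon (-0.09, interval -0.13 to -0.05). In LNCaP shMAOA and shCon it had 1255 against 1105 CPM (0.18, interval 0.17 to 0.20), or 0.05 after centring. Of its 50-base words 29.1% occur in the pseudogene SORD2P, so reads may be split between them. ALDH1A3, which makes retinoic acid, had 14.4 against 16.9 CPM in C4-2B ENZR shMAOA and shCon (-0.22) and 128 against 141 CPM in LNCaP shMAOA and shCon (-0.14, and -0.28 after centring). Of its 50-base words 24.1% lie opposite another transcript. ACSL3, which activates long-chain fatty acids, had ratios of 0.10 and 0.03 in the 2 lines, with 165 against 154 CPM in C4-2B ENZR shMAOA and shCon. HPGD, which inactivates prostaglandins, had 1 read in each C4-2B ENZR library and 2.03 against 2.15 CPM in LNCaP shMAOA and shCon. None of the 4 enzymes of this group tested beside ABHD2 passed in limma (adjusted p between 0.276 and 0.919), in edgeR (TMM recomputed) (0.157 to 0.998) or in DESeq2 (0.515 to 0.998), and none had an unadjusted p under 0.05 in limma as deposited. In limma after centring and in edgeR (TMM recomputed) 2 of the 4 were lower at that unadjusted p, where 10.7% and 9.59% of all genes were.

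The transcription factors held the widest ratios. ZBTB10, a zinc finger and BTB domain protein, had 248 CPM in shMAOA against 128 CPM in shCon of LNCaP (0.95, interval 0.91 to 0.99), or 0.81 after centring. In C4-2B ENZR it had 52.3 CPM in shMAOA against 49.1 CPM in shCon (0.09, interval -0.02 to 0.21). It rose in the mean of both lines (0.52, SE 0.13, limma adjusted p = 0.00274), a mean that LNCaP decides: without LNCaP the ratio is 0.09 and without C4-2B ENZR it is 0.95. ZBTB10 did not pass in edgeR (TMM recomputed) (adjusted p = 0.0979) or in DESeq2 (0.147), and its adjusted p ran between 0.00183 and 0.311 over the alternatives.

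MAF, a basic leucine zipper factor, had 64.7 CPM in shMAOA against 132 CPM in shCon of LNCaP (-1.02, interval -1.09 to -0.97), or -1.15 after centring, on 3163 and 7501 reads. In C4-2B ENZR it had 2 reads in shMAOA and 6 in shCon and was not measured, so it entered no test over both lines. It was the member with the lowest ratio in LNCaP and the sole measured member past 2-fold in either line.

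ELL2, an RNA polymerase II elongation factor, had 10.1 CPM in shMAOA against 17.8 CPM in shCon of C4-2B ENZR (-0.76, interval -1.05 to -0.59), on 248 and 441 reads. The LNCaP libraries had 58.3 CPM in shMAOA against 51.1 CPM in shCon (0.19, and 0.05 after centring), and the mean did not pass (-0.29, limma adjusted p = 0.229). EAF2, its binding partner, had 4.19 against 4.85 CPM in C4-2B ENZR shMAOA and shCon (-0.17) and 4.65 against 5.18 CPM in LNCaP shMAOA and shCon (-0.13). Both intervals of EAF2 include equality.

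GREB1, a cofactor of steroid receptors, had 12.8 CPM in shMAOA against 15.6 CPM in shCon of C4-2B ENZR (-0.27, interval -0.51 to -0.07). LNCaP cells had 55.4 CPM in shMAOA against 65.1 CPM in shCon (-0.23, and -0.36 after centring). CREB3L4, a membrane-bound basic leucine zipper factor of prostate epithelium, had 56.9 against 62.6 CPM in C4-2B ENZR shMAOA and shCon (-0.13) and 64.3 against 80.4 CPM in LNCaP shMAOA and shCon (-0.32). SPDEF, an ETS factor of luminal cells, had 58.9 against 61.4 CPM in C4-2B ENZR shMAOA and shCon (-0.06) and 304 against 264 CPM in LNCaP shMAOA and shCon (0.20, and 0.07 after centring). MED28, a Mediator subunit, had a ratio of 0.22 within the C4-2B ENZR pair. Its LNCaP ratio of 0.14 lay with the bulk of genes and was 0.009 after centring. A share of 31.5% of MED28's 50-base words lies opposite another gene, mostly FAM184B. None of these 4 passed, with limma adjusted p = 0.304, 0.310, 0.821 and 0.490 in this order.

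**Figure D3:**
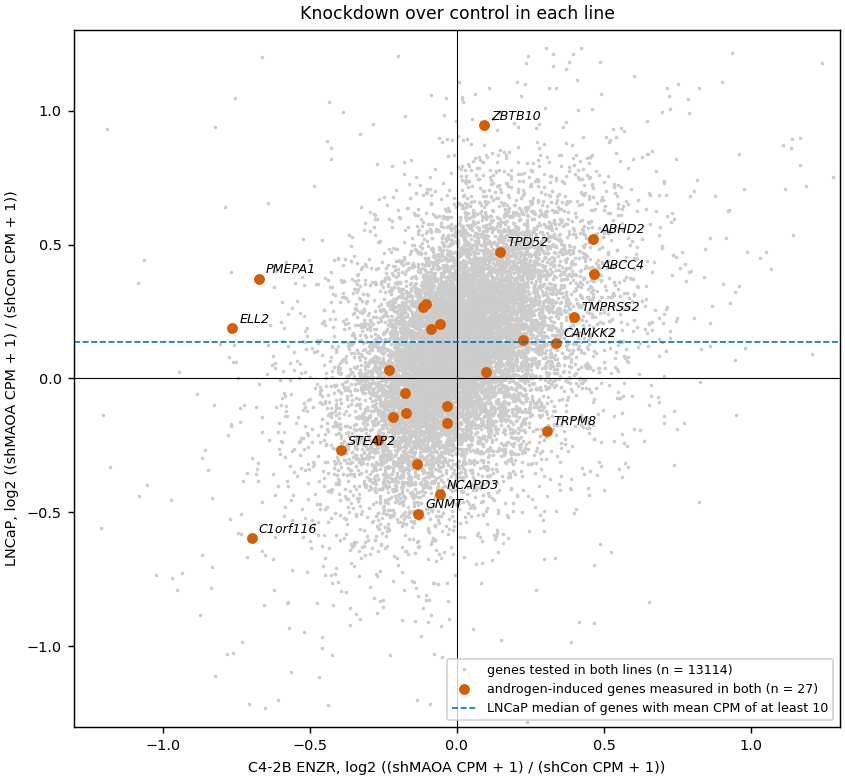
Log2 ratio of (shMAOA CPM + 1) over (shCon CPM + 1) in C4-2B ENZR (horizontal) and LNCaP (vertical), with 13114 genes tested in both lines in grey and the 27 members among them as large points. The axes end at 1.3 and leave out 44 genes, none of them a member, and the dashed line is the LNCaP median of 0.13. C1orf116 lies at the lower left, ABHD2 and ABCC4 at the upper right, and PMEPA1 and ELL2 at the upper left.

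Members that act in cell division did not share a direction in LNCaP. NCAPD3, a subunit of the condensin II complex that compacts chromosomes, had 77.9 CPM in shMAOA against 105 CPM in shCon of LNCaP (-0.43, interval -0.50 to -0.38). In C4-2B ENZR it had 100.4 CPM in shMAOA against 105 CPM in shCon (-0.06, interval -0.14 to 0.02). Its mean did not pass as deposited (-0.25, limma adjusted p = 0.255), and after centring it was -0.31 with a limma adjusted p = 0.0484, within a range of 0.04 to 0.447 over the alternatives. CENPN, which binds centromeric nucleosomes, had 66.4 against 71.5 CPM in C4-2B ENZR shMAOA and shCon (-0.10, interval -0.20 to -0.01) and 388 against 319.7 CPM in LNCaP shMAOA and shCon (0.28, interval 0.25 to 0.31), or 0.15 after centring. Of its 50-base words 16.5% lie opposite another gene, mostly CMC2. MPHOSPH9, an M-phase phosphoprotein of centrioles, had ratios of -0.03 and -0.10.

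Other centromere and condensin genes are the comparison for NCAPD3 and CENPN. Of 24 such genes, all tested, none rose and NCAPG fell in limma, with 0 higher and 10 lower at an unadjusted p under 0.05, where 13.8% of all genes were higher and 5.39% lower. After centring 7 fell, and in edgeR (TMM recomputed) none did, with 11 lower at an unadjusted p under 0.05 (9.59% of all genes). Their median log2 ratio was -0.13 over the C4-2B ENZR pair and -0.30 over the LNCaP pair, and 20 of the 24 were below 0 in LNCaP, where CENPN was above. NCAPG, a condensin I subunit, had 75.4 against 89.2 CPM in C4-2B ENZR shMAOA and shCon and 29.5 against 44.2 CPM in LNCaP shMAOA and shCon (mean -0.40, limma adjusted p = 0.0318, and 0.062 in edgeR (TMM recomputed)). The part of cell division in the ratio of NCAPD3 was not tested.

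C1orf116, known as the specifically androgen-regulated gene and of unsettled function, fell. It had 98.8 CPM in shMAOA against 161 CPM in shCon of C4-2B ENZR (-0.70, interval -0.78 to -0.63), on 2430 and 3980 reads. In the LNCaP pair there were 136 CPM in shMAOA against 206 CPM in shCon (-0.60, interval -0.64 to -0.56), on 6639 and 11684 reads, or -0.73 after centring. Both shMAOA libraries were thus at 61.4% and 66.0% of their shCon library. The mean was -0.65 (SE 0.12, limma adjusted p = 5.21e-05), and it passed in edgeR (TMM recomputed) (-0.71, adjusted p = 0.00419) and in DESeq2 (-0.71, adjusted p = 6.43e-06). None of its 50-base words occurs in another gene on either strand (0%). Without a filter on low values its limma adjusted p was 0.101, in a fit of 20780 genes.

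TPD52, a protein of vesicle trafficking, had 215 CPM in shMAOA against 154 CPM in shCon of LNCaP (0.47, interval 0.43 to 0.52), or 0.34 after centring. In C4-2B ENZR it had 144 CPM in shMAOA against 130.2 CPM in shCon (0.15, interval 0.08 to 0.22). It was higher in both shMAOA libraries and did not pass (mean 0.31, limma adjusted p = 0.135), and 10.8% of its 50-base words occur in another gene.

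**Figure D4:**
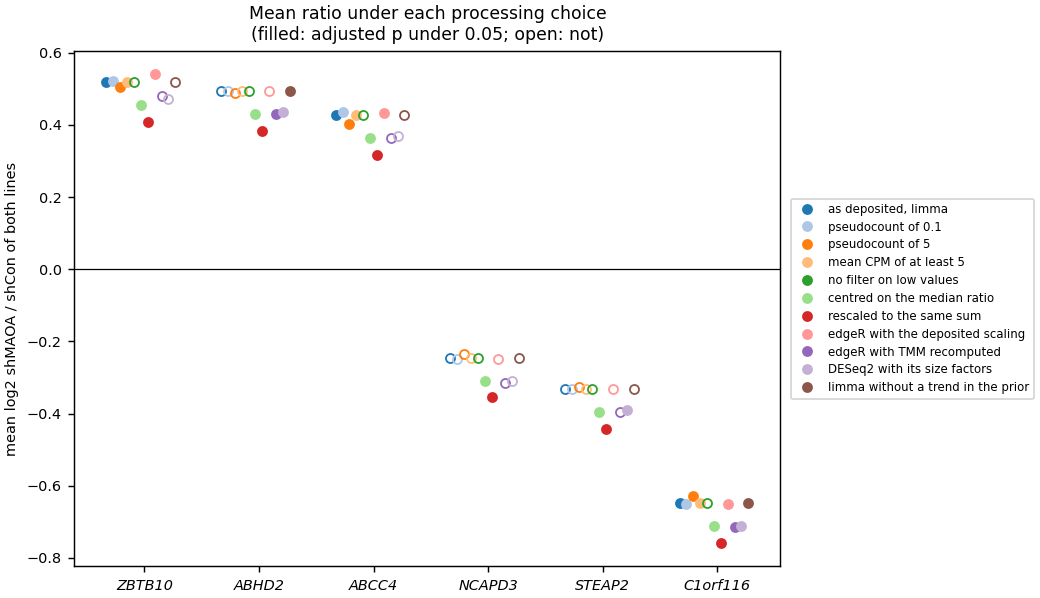
Mean log2 ratio of shMAOA over shCon in the 2 lines for the 6 members that passed in limma as deposited, in limma after centring or in edgeR (TMM recomputed), under each processing choice. Filled points have an adjusted p under 0.05 and open points do not. C1orf116 stays between -0.63 and -0.76 and is open in the fit without a filter alone, while ZBTB10 and ABCC4 are open in 4 of the 11 fits each.

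Levels of the members can be set beside each other between the lines only as separately normalized values. In the shCon libraries 31 of the 33 had a higher CPM in LNCaP and 19 of them had more than 3 times the C4-2B ENZR value. Over the 14483 genes with at least 1 CPM in either line these shares were 41.2% and 6.44%. TMPRSS2 stood at 75.6 CPM in C4-2B ENZR and 1137 CPM in LNCaP, whereas ACSL3 stood at 154 and 157 CPM and MPHOSPH9 at 65.6 and 56.1 CPM. The 6 members under 1 CPM in C4-2B ENZR were MAF, PTGER4, ADAM7, STEAP4, HPGD and CHRNA2. Drug exposure, lane and line cannot be told apart in this contrast.

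Genes around the members in the androgen pathway were taken from lists of known genes. For these lists the shares over all genes tested are 4.22% risen and 1.49% fallen in limma. They are 4.41% and 4.14% in limma after centring, and 1.33% and 0.976% in edgeR (TMM recomputed). Of 3 kallikreins tested KLK3 and KLK4 rose in limma and in limma after centring, and neither did in edgeR (TMM recomputed) (adjusted p = 0.321 and 0.0553), where 1 had an unadjusted p under 0.05. KLK4, a secreted serine protease, had 98.1 against 81.8 CPM in C4-2B ENZR shMAOA and shCon and 489.4 against 280.1 CPM in LNCaP shMAOA and shCon (mean 0.53, SE 0.13, limma adjusted p = 0.0026). KLK3, the gene of prostate-specific antigen, had ratios of 0.64 and 0.18, and 0.05 in LNCaP after centring. KLK2 had 24.4 against 17.4 CPM in C4-2B ENZR and 376 against 397 CPM in LNCaP shMAOA and shCon and did not pass (limma adjusted p = 0.411). The 5 kallikreins of the list summed to 129.8 and 104.1 CPM in C4-2B ENZR shMAOA and shCon. Most of that was KLK4 and KLK2, so the KLK3 ratio in C4-2B ENZR rests on low values.

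Of 5 androgen-repressed genes tested, DDC, the decarboxylase that makes dopamine and serotonin, rose in limma and in edgeR (TMM recomputed) (mean 1.42, adjusted p = 5.85e-15 and 0.0129). None of the 5 fell, also at an unadjusted p. The list holds 12 genes, and those measured in 1 line alone were not tested. In C4-2B ENZR 8 were measured, 5 of them below 0, with a median log2 ratio of -0.48. In LNCaP 6 were measured, 2 of them below 0, with a median of 0.19. Of 9 glucocorticoid-induced genes tested, a list that FKBP5 is on, TSC22D3, the glucocorticoid-induced leucine zipper, rose and SGK1, a kinase, fell. TSC22D3 had 97.4 against 35.2 CPM in C4-2B ENZR shMAOA and shCon and 362 against 158 CPM in LNCaP shMAOA and shCon (mean 1.32, limma adjusted p = 4.07e-19). SGK1 had 2.03 against 3.11 CPM in C4-2B ENZR and 6.32 against 16.0 CPM in LNCaP shMAOA and shCon (mean -0.83, limma adjusted p = 0.000193). NR3C1, the glucocorticoid receptor gene, had at most 13 reads in any library.

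Of 31 relatives of the members by family, 23 were tested. In limma 1 rose and 1 fell, where 4.22% of all genes rose and 1.49% fell. The gene that rose was ACSL4. ACSL4, which activates polyunsaturated fatty acids, had 3.33 against 1.90 CPM in C4-2B ENZR and 6.86 against 3.56 CPM in LNCaP shMAOA and shCon (mean 0.68, limma adjusted p = 0.00557, and 0.0737 in edgeR (TMM recomputed)). STEAP3, which unlike STEAP2 was higher in both shMAOA libraries (0.11 in C4-2B ENZR and 0.26 in LNCaP, or 0.12 after centring), did not pass (limma adjusted p = 0.466).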

How the data were processed

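Total RNA of 4 cultures was sequenced as single reads of 50 nt, per the labels. Bowtie2 2.1.0, RSEM 1.2.15, edgeR and build hg19 are listed per the submitters' processing notes, without annotation or filters. For each line the authors deposited a table of CPM scaled by TMM, per the titles they gave the tables. The deposited LNCaP values were handled as a signal on that scale, since the shMAOA column sums to 1064500. Each value (100%) came out as a whole number of reads, with a tolerance of 0.01 read, and those reads were used as counts; 3 reads equal 0.122 and 0.121 CPM in C4-2B ENZR shMAOA and shCon and 0.0614 and 0.0529 CPM in LNCaP shMAOA and shCon.

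From these values, ratios with a pseudocount of 1 were tested in limma 3.58.1 (R 4.3.3) on genes with a mean of at least 1 CPM in both tables, with terms for line and knockdown, 1 residual and 276 prior degrees of freedom, and a trended prior. Such p-values mostly set a ratio against the spread of other genes, and no replicate cultures are labelled. On recovered reads, edgeR 4.0.16 called 175 genes higher and 128 lower with TMM recomputed, and 584 and 205 with the deposited scaling, beside 554 and 195 in limma, and DESeq2 1.42.0 gave 132 and 90. DESeq2 left 1017 genes with no adjusted p. A difference between the lines cannot be tested with 4 libraries. Shared 50-base words were counted in GENCODE 29 transcripts. Genes, lists and tests were chosen with earlier results of these data known. By rule, values in every library are given for members that passed limma, were past 1.5-fold or opposite by at least 0.2 in the lines, were below 1 CPM in 1 table, or are best known (TMPRSS2, FKBP5, SLC45A3 and the STEAP genes), and for at most 10 others. The text goes beyond that limit and gives values for the remaining members too, a choice made after their values were seen. From each pathway list at most 3 genes that passed limma are named each way, beside MAOA, KLK2 and KLK3. Some genes of these lists, and a list that depends on one, are not reported here. Other pseudocounts, filters, scalings and tools were compared.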

Additional observations from a re-analysis of the deposited data

Results flagged for a closer look

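In 3 members the ratio of shMAOA over shCon had opposite signs in the 2 lines, with each counting interval away from equality and also away from the median ratio of its table. The widest pair was PMEPA1, at -0.67 in C4-2B ENZR and 0.37 in LNCaP. CENPN had -0.105 in C4-2B ENZR and 0.28 in LNCaP, and SORD had -0.0899 in C4-2B ENZR with 0.18 in LNCaP. After centring the LNCaP ratios were 0.24 for PMEPA1, 0.15 for CENPN and 0.05 for SORD. Any such difference between the lines was not tested, because 1 library per group leaves nothing to test it with, and the intervals cover counting error only.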

How the results depend on the processing

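The counts of members that passed, 2 rises and 1 fall, moved with the filter, the scaling, the tool and the prior. Without a filter on low values limma gave 0 rises and 0 falls, with 5 members higher and 3 lower at an unadjusted p under 0.05, beside 8.54% and 4.08% of all genes. In edgeR (TMM recomputed), in DESeq2 and in limma without a trend in the prior there was 1 rise each. Of all genes 1.33%, 1.01% and 2.49% rose in these fits. After centring or rescaling to the same sum there were 3 falls each, beside 4.14% and 4.98% of all genes. DESeq2 gave 2 falls, beside 0.686% of all genes. ABCC4 and ZBTB10 did not pass in 4 of the 10 alternative fits each (highest adjusted p 0.199 and 0.311), and C1orf116 missed in the fit without a filter alone (0.101).

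Counts past a fold within a line moved as follows. At 2-fold, 0 members were lower in C4-2B ENZR, beside 0.152% of all genes. In LNCaP 0 were higher and 1 lower at 2-fold, beside 0.58% and 0.254% of all genes. At 1.5-fold in LNCaP 1 was lower with a pseudocount of 5 and 4 after rescaling to the same sum (shares over all genes not counted). The cause was not tested, beyond the size of the median shift in LNCaP (0.13 as deposited, 0.02 with recomputed TMM and -0.06 with equal sums). No called member changed sign under any of these alternatives. Of the ratios within a line, 56 moved and 297 stayed within counting error. The 297 include every comparison under another filter, which leaves a ratio unchanged by construction, so that count overstates how stable the ratios were. Over all genes, rises and falls numbered 554 and 195 in limma, 14 and 6 without a filter, 351 and 653 after rescaling, and 326 and 130 without a trend. Leaving out a line leaves 1 ratio and no test. The labels give no replicate numbers to use as a block, and line, a term in every fit, pairs the 2 libraries of a line. Reads limit the low members in C4-2B ENZR.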
